A study of Mus musculus with 5 samples.

Results

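The genes described here are 8 genes of the mast cell: the 3 chains of its high-affinity IgE receptor (Fcer1a, Ms4a2 and Fcer1g), its growth factor receptor Kit, its granule proteases Cpa3, Cma1 and Tpsb2, and Hdc, the enzyme that makes histamine. Each was taken as the array row annotated with that symbol alone, out of 19938 genes measured in this way. Among several rows of a gene the row was chosen by its mean level over the 5 arrays, but each of the 8 had a single such row. The set was drawn up with earlier results of these arrays known, so the values and the p-values given for its members describe these 5 arrays and are not independent evidence. RNA came from cartilage of the mandibular condyle, with which the lower jaw meets the skull, in mice of strain 129/Sv. The arrays were from DDR-1-KO mice, which lack discoidin domain receptor 1, a collagen-binding tyrosine kinase (knockout 2 and 5, n = 2), and from wild-type mice (wild type 3, 4 and 6, n = 3), with 1 array per mouse. The sources used here do not give how the knockout allele was made or the age of the mice.

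Mast cells are tissue-resident immune cells of connective tissue that lie near vessels and nerves. Their IgE receptor is built from an alpha chain that binds IgE, a beta chain that amplifies the signal and a pair of gamma chains that pass it to the kinase Syk. When antigen cross-links the bound IgE, the cells release histamine, heparin and proteases from granules and go on to make prostaglandins, leukotrienes and cytokines. Kit, the receptor of stem cell factor, keeps them alive.

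Levels are log2 signals of robust multi-array averaging (RMA), and differences subtract the wild-type mean from the knockout mean of those log2 values. A level depends on the probes of its own row, so levels of different genes are not ordered here. Knockout 2 and wild type 3 carry one date in their array names (run 1) and the other arrays a later one (run 2). Over all genes, the knockout arrays stood apart from wild type and from each other. The Pearson correlation across genes was 0.803 between the knockout arrays, 0.814 to 0.837 between knockout 2 and wild type, 0.903 to 0.927 between knockout 5 and wild type and 0.984 to 0.993 among wild-type arrays. Ddr1 itself was at 5.96 in knockout 2 and at 5.80 in knockout 5, against 6.02 on each wild-type array. The difference of -0.14 (0.035 after cyclic loess) had limma's adjusted p = 0.377, so this row gives no check of the labels, and the positions of its probes were not used here. Markers of chondrocytes, the labelled tissue's own cells, were lower in knockout for 14 of 15 genes. Of these, 3 (Sox9, Comp and Col9a3) fell past the threshold, as did 2.18% of all genes. Most of the 15, with these 3 among them, were in the highest quintile of all genes by wild-type level. In that quintile the median difference was -0.27 and 5.54% of genes fell past the threshold. The part of this level trend in the chondrocyte markers was not tested. All 3 calls were lost once the run entered as a block (limma's adjusted p = 0.0603, 0.0886 and 0.0797) and under each of 3 other scalings of the arrays (0.0508 to 0.271). They were also lost without wild type 3, 4 or 6 (0.106 to 0.205) and with array weights, which did not converge. The call of Col9a3 was also lost with robust variances (0.0505) and without knockout 2. The mean level of the 15 was 5.66 and 5.90 in knockout 2 and 5, against 6.05 to 6.08 in wild type.

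Of the IgE receptor chains, the alpha and beta chains were higher on both knockout arrays than on every wild-type array, while the gamma chain was slightly lower. Ms4a2, the beta chain, was the 1 member of the 8 that passed the test. Fcer1a, the alpha chain, was about 1.47-fold higher and did not pass. Cpa3, the granule carboxypeptidase, also had both knockout arrays above every wild-type array.

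Because these 3 genes had both knockout arrays above wild type, the 250 bases before their annotated starts are shown, from RefSeq on GRCm38.p6, each in the direction of its gene. Capitals mark GATAA, the core that GATA factors bind, read on either strand (as GATAA or TTATC). GATA2 is a factor that mast cells need.
Ms4a2: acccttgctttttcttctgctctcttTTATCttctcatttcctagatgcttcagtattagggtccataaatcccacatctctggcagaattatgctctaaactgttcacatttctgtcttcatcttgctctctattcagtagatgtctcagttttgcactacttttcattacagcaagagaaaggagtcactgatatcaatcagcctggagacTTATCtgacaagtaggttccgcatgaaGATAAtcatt
Fcer1a: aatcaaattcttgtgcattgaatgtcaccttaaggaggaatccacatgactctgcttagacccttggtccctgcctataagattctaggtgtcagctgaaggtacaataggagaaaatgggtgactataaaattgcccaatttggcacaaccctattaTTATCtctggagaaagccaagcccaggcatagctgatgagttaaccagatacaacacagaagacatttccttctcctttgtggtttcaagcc
Cpa3: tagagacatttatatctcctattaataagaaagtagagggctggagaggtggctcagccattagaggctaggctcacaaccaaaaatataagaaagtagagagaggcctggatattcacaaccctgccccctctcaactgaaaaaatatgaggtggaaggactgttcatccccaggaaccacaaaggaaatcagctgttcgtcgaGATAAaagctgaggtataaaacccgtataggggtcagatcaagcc
These stretches lie on the minus strand at chr19:11623720-11623969 for Ms4a2, chr1:173227230-173227479 for Fcer1a and chr3:20242182-20242431 for Cpa3. Ms4a2 held 3 matches, beginning 224, 37 and 10 bases before the start, Fcer1a held 1 at 92 bases and Cpa3 held 1 at 45 bases. Among all 27025 such promoters 23.0% held at least 1 match and 0.755% held 3 or more. Of the 7 members with a promoter in the table, Cma1 was the fourth with a match, at 194 bases before its start, although its signal was the same on all 5 arrays. Fcer1g, Kit and Hdc had none in this window. The E-box CANNTG, the letters that Mitf and other helix-loop-helix factors recognise, was in 5 of the 7, in Fcer1a, Fcer1g, Cpa3, Cma1 and Hdc, and in 66.0% of all promoters. A match of letters is a description of the sequence and shows no binding.

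Ms4a2 was at 4.40 in knockout 2 and at 4.21 in knockout 5, against 3.31 in each of wild type 3, 4 and 6. Both knockout arrays were thus well above a wild-type group without any spread. The difference was 0.998 (SE 0.068, 95% interval 0.80 to 1.20), which is 1.998-fold, with limma's adjusted p = 0.0226 over all genes. Because the 3 wild-type values are identical, that SE rests on the knockout arrays and on limma's moderation, and does not measure the spread between wild-type mice. The difference was 1.10 within run 1 and 0.90 within run 2. The call was lost once the run entered as a block (0.98, adjusted p = 0.0579) and after cyclic loess between the arrays (0.77, adjusted p = 0.052). It was also lost without wild type 3, 4 or 6 (adjusted p = 0.136, 0.162 and 0.183) and with array weights, which did not converge (adjusted p = 0.175).

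Fcer1a was at 3.93 in knockout 2 and at 4.28 in knockout 5, against 3.52, 3.59 and 3.53 in wild type 3, 4 and 6. The groups did not overlap, and knockout 5 was the highest of the 5 arrays. The difference was 0.56 (SE 0.12, 95% interval 0.21 to 0.91; adjusted p = 0.127), with 0.40 within run 1 and 0.72 within run 2, and it was 0.35 after cyclic loess. Fcer1a is the only member with 5 distinct values.

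Fcer1g, the gamma chain that many other receptors of myeloid cells also use, was at 4.99 and 4.93 in knockout 2 and 5, against 5.38, 5.03 and 5.03 in wild type 3, 4 and 6. The knockout arrays were lowest, but they lay close to wild type 4 and 6, and wild type 3 stood above the rest. The difference was -0.18 (SE 0.14, 95% interval -0.59 to 0.22; adjusted p = 0.417), and it was -0.066 without wild type 3. The IgE receptor chains were therefore not on the same side of wild type in these arrays.

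**Figure D1:**
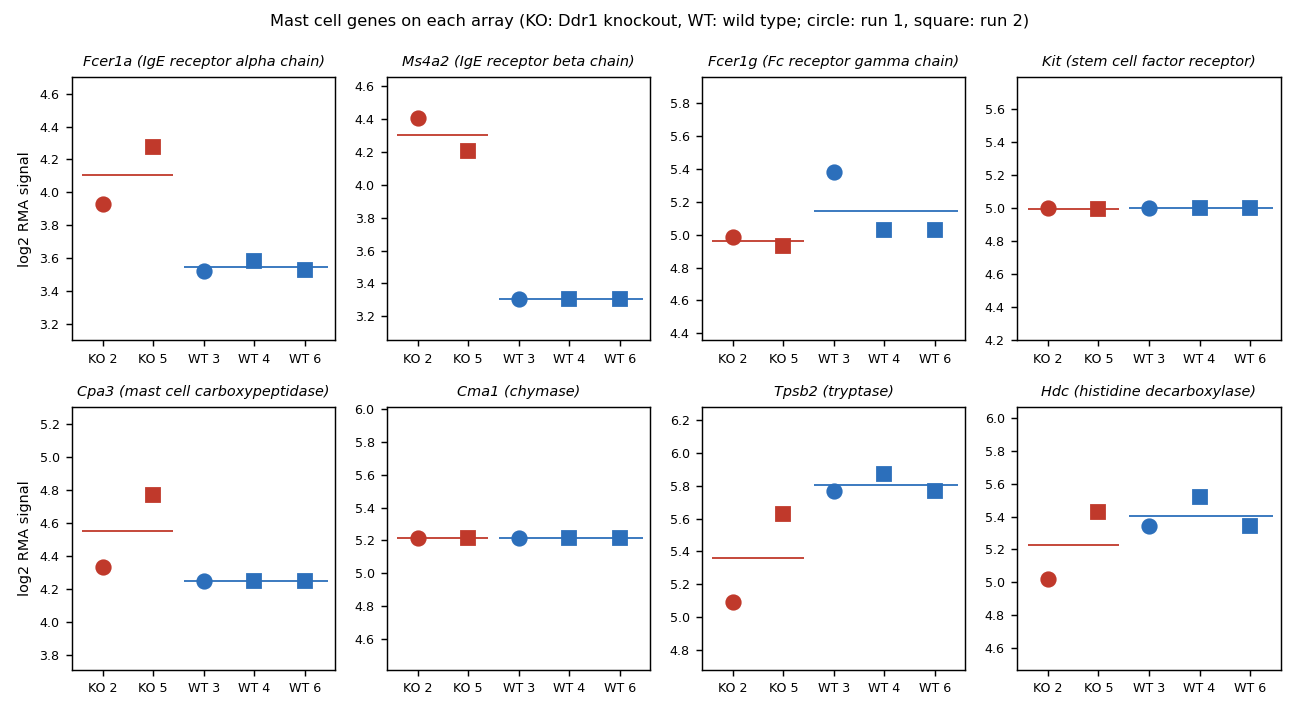
Log2 RMA signal (y axis, the same span in each panel) of the 8 genes on each array (x axis), with Ddr1 knockout in red and wild type in blue, circles for run 1, squares for run 2 and lines for group means. Ms4a2, Fcer1a and Cpa3 have both knockout arrays above wild type, Fcer1g and Tpsb2 have both below, Hdc overlaps, and Kit and Cma1 are flat.

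Kit read 5.0001 in knockout 2 and 4.9924 in knockout 5, against 5.0001 on every wild-type array, and only knockout 5 departed from the common value. The difference was -0.0038 (SE 0.016, 95% interval -0.049 to 0.041; adjusted p = 0.916), and its sign turned under 3 scalings, to between 0.035 and 0.068. RMA summarises the probes of a row by median polish, which can return the same number for several arrays whose probes differ, so identical values do not show equal expression.

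The 3 proteases went 3 ways. Cpa3, the carboxypeptidase stored with chymase in connective-tissue mast cells, was at 4.33 in knockout 2 and at 4.77 in knockout 5, against 4.25 on every wild-type array. Knockout 2 was just above wild type and knockout 5 clearly so, giving a difference of 0.30 (SE 0.15, 95% interval -0.12 to 0.73; adjusted p = 0.399), with 0.088 within run 1 and 0.52 within run 2. Cma1, a chymase, had 5.21 on all 5 arrays, so its difference was 0, with the same caveat on median polish. Tpsb2, a tryptase, was at 5.09 in knockout 2 and at 5.63 in knockout 5, against 5.77, 5.87 and 5.77 in wild type 3, 4 and 6. Both knockout arrays were below wild type and knockout 2 was the lowest, with a difference of -0.44 (SE 0.19, 95% interval -0.98 to 0.091; adjusted p = 0.365), -0.68 within run 1 and -0.19 within run 2. Tpsb2 and Tpsab1 are close copies of each other, and how far their probes keep them apart was not checked.

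Hdc, histidine decarboxylase, was at 5.02 in knockout 2 and at 5.43 in knockout 5, against 5.34, 5.52 and 5.34 in wild type 3, 4 and 6. The groups overlapped, since knockout 2 was below wild type and knockout 5 lay among its values. The difference was -0.18 (SE 0.15, 95% interval -0.62 to 0.27; adjusted p = 0.468), with -0.32 within run 1 and -0.0011 within run 2, and it was -0.081 after cyclic loess.

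**Figure D2:**
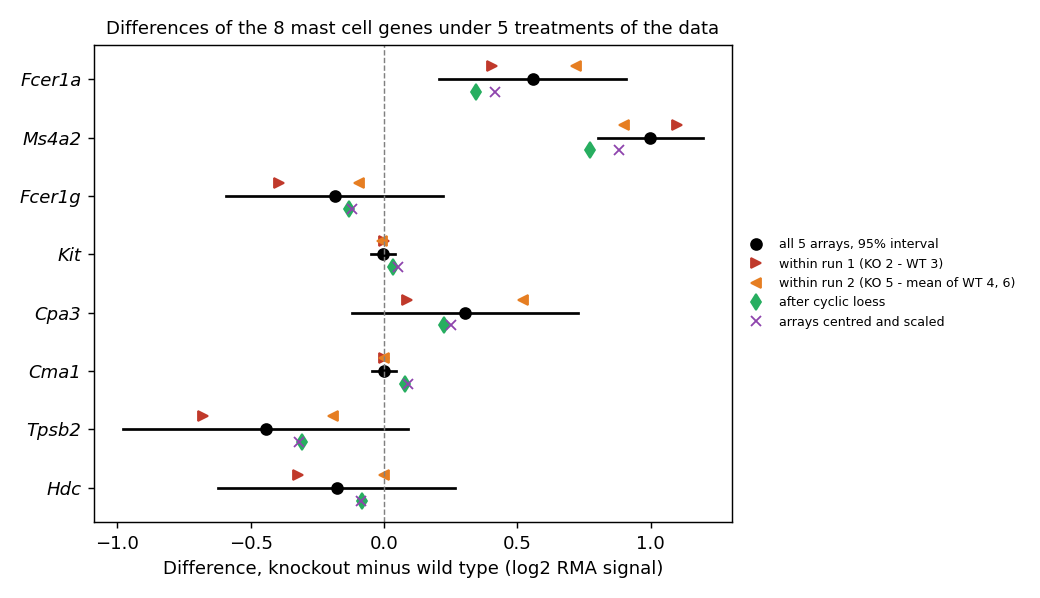
Difference, knockout minus wild type, in log2 RMA signal (x axis) for each gene (rows), with black points and bars for all 5 arrays and limma's 95% interval, and coloured marks for the difference within each run, for cyclic loess and for arrays centred and scaled. All 5 marks lie above 0 for Ms4a2, Fcer1a and Cpa3 and below 0 for Fcer1g, Tpsb2 and Hdc, and the interval excludes 0 for Ms4a2 and Fcer1a.

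Over the 8 genes, 1 passed in limma, as a rise, and 7 did not. Of all genes tested 3.73% passed, 1.55% as rises and 2.18% as falls, and no excess is read from 1 gene in 8. Both knockout arrays were above all wild-type arrays for 3 members, against 13.0% of all genes, and below them for 2 members, against 18.6%. The groups were thus apart for 5 of 8 members and for 31.5% of all genes. The median difference of the members was -0.0019, and that of all genes was -0.0083. In bulk tissue a change in the number of mast cells and a change in the RNA per mast cell cannot be told apart. Detection above background was not called, so these values do not show how far each gene was expressed in the tissue.

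The difference moved with the level over the whole array. Split into quintiles by wild-type level, which the difference itself contains, genes of the lowest quintile had a median difference of 0.30 and those of the highest quintile -0.27. After cyclic loess these medians were 0.092 and -0.075. Ms4a2, Fcer1a and Cpa3 were all in the lowest quintile, where 37.7% of genes had both knockout arrays above wild type and 4.97% rose past the threshold. There the upper quartile was 0.59 and the 95th percentile 1.13. The 0.998 of Ms4a2 thus lay between those marks, Fcer1a at 0.56 just under the upper quartile and Cpa3 at 0.30 near the median. A difference of at least 1 was reached by 7.20% of that quintile. Fcer1g, Kit and Cma1 were in the third quintile, with a median of -0.027. Tpsb2 and Hdc were in the fourth, where the median was -0.12 and 27.4% of genes had both knockout arrays below wild type. The part of this trend in the members' differences was not tested.

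**Figure D3:**
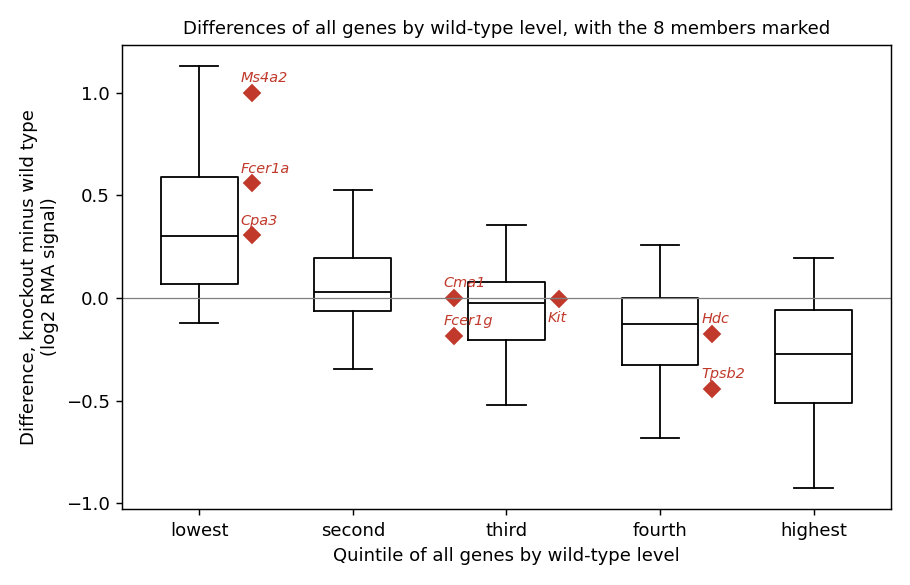
Difference, knockout minus wild type, in log2 RMA signal (y axis) of all genes in quintiles by wild-type level (x axis), with boxes from the lower to the upper quartile, lines at the median and whiskers from the 5th to the 95th percentile. Red diamonds are the 8 members, of which Ms4a2, Fcer1a and Cpa3 sit in the lowest quintile, where the median is 0.30, and Hdc and Tpsb2 in the fourth, where it is -0.12.

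Genes that work with the members were read from 4 lists of mast cell genes, of which 60 of 66 were measured, and none of the 60 passed in limma. At an unadjusted p under 0.05 in limma there were 7 of the 60, against 3637 of all 19938 genes. Of the 60, 28 were higher, 28 lower and 4 the same, and their median difference was 0. Both knockout arrays were above wild type for 6 of the 60 and below for 6, against 13.0% and 18.6% of all genes.

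Among 17 regulators and surface genes, 9 were higher and 7 lower, with a median of 0.025. Csf2rb, the shared beta chain of the receptors for interleukin 3, interleukin 5 and GM-CSF, was at 5.30 and 5.21 in knockout 2 and 5, against 4.82, 4.64 and 4.82 in wild type 3, 4 and 6. The groups did not overlap, and the difference of 0.49 (SE 0.078) had adjusted p = 0.0734. Tal1, a transcription factor of blood lineages, was at 6.05 and 5.58 in knockout 2 and 5, against 6.71, 6.67 and 6.67 in wild type, a difference of -0.87 (SE 0.16; adjusted p = 0.0951). The other genes named in this list were picked after their values were seen, for their roles. Gata2 lay on both sides of wild type, at 5.55 in knockout 2 and at 6.68 in knockout 5, against 6.24 on every wild-type array. Kitl, which encodes the ligand of Kit, was at 3.54 in knockout 2 and at 3.07 on each of the other 4 arrays. Mrgprb2, the receptor through which mouse mast cells answer basic peptides and drugs, was at 4.16 and 3.22 in knockout 2 and 5, against 3.22, 3.10 and 3.22 in wild type.

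Among 13 further granule genes, 7 were higher, 4 lower and 2 the same, with a median of 0.087. Those of lowest p were Gzmb, granzyme B (0.087, adjusted p = 0.103), and Ctsg, cathepsin G (0.16, adjusted p = 0.399). Of 5 further mast cell protease genes, named after their values were seen for their kinship with the members, 3 left the wild-type range in knockout 2 alone. Mcpt2, a protease of mucosal mast cells, was at 4.94 in knockout 2 and at 3.22 on each of the other 4 arrays. Mcpt1, also a protease of mucosal mast cells, was at 4.18 and 3.62 in knockout 2 and 5, against 3.62, 3.60 and 3.62 in wild type. Tpsg1, a membrane-anchored tryptase, went the other way, with 4.14 and 5.25 in knockout 2 and 5, against 5.27, 5.28 and 5.25 in wild type. Mcpt4, the main chymase of connective-tissue mast cells in mice, had 4.44 on all 5 arrays, and the tryptase Tpsab1 had 4.97 on all 5. The chymases Cma1 and Mcpt4 and the tryptase Tpsab1 were thus flat to the last digit of the table.

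Among 17 genes of signalling below the IgE receptor, 6 were higher, 10 lower and 1 the same, with a median of -0.049. Plcg2, a phospholipase C that raises calcium, was at 5.61 and 5.43 in knockout 2 and 5, against 5.93, 5.77 and 5.74 in wild type 3, 4 and 6 (-0.29, adjusted p = 0.239). Orai1, the calcium channel of the plasma membrane, was at 4.63 and 5.16 in knockout 2 and 5, against 5.44, 5.60 and 5.38 in wild type (-0.58, adjusted p = 0.267). Both had every knockout value below every wild-type value. Syk was at 5.73 in knockout 2 and at 5.78 in knockout 5, against 5.73 on every wild-type array, and the adaptor Gab2 was at 6.01 on all 5 arrays. These 2 were picked after their values were seen.

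Among 13 genes of lipid mediators and cytokines, 6 were higher and 7 lower, with a median of -0.045. Tph1, the enzyme of serotonin synthesis outside the brain, was at 5.96 and 5.36 in knockout 2 and 5, against 5.26, 5.001 and 4.76 in wild type 3, 4 and 6 (0.66, adjusted p = 0.344). Il6 was at 3.01 and 2.76 in knockout 2 and 5, against 2.63, 2.63 and 2.55 in wild type (0.29, adjusted p = 0.248), and its sign turned to -0.20 after cyclic loess and to -0.027 with arrays centred and scaled. Hpgds, the prostaglandin D synthase of mast cells, named after its values were seen, was at 4.95 in knockout 2 and at 4.39 in knockout 5, against 4.39, 4.34 and 4.39 in wild type.

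**Figure D4:**
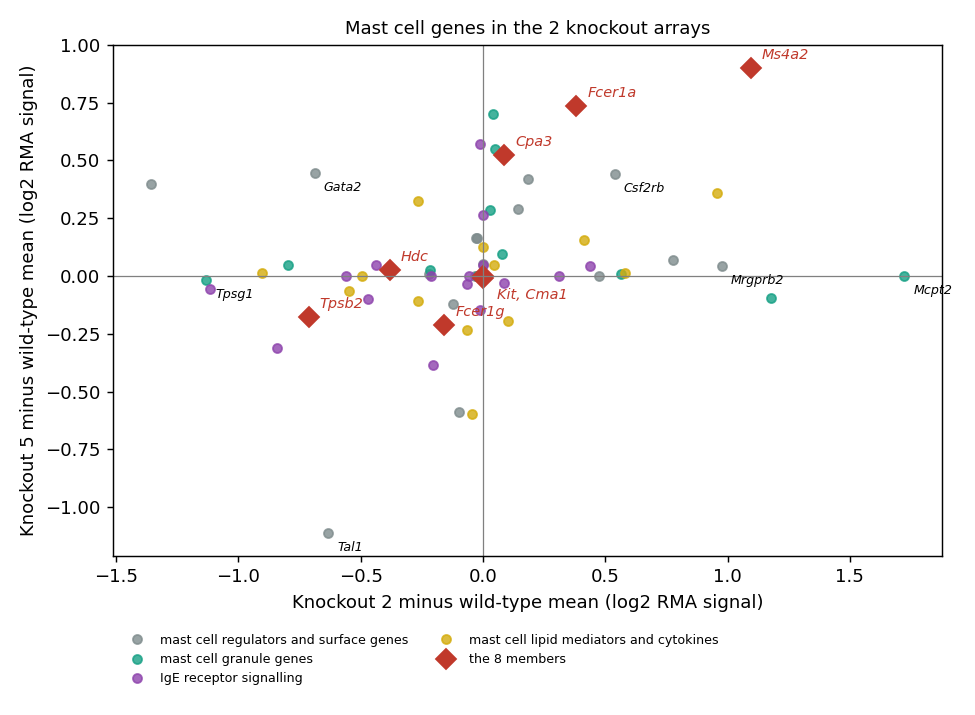
Knockout 2 minus the wild-type mean (x axis) and knockout 5 minus the wild-type mean (y axis), in log2 RMA signal, for the 8 members (red diamonds) and the 60 other mast cell genes, coloured by list. Ms4a2 is the gene farthest into the corner where both knockout arrays are higher, at 1.10 and 0.90, while Mcpt2, at 1.72 and 0, and Tpsg1, at -1.13 and -0.017, leave wild type in knockout 2 alone.

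For Cpa3, Tpsb2 and Hdc, and for the nearly flat Kit, the knockout arrays differed from each other by more than their mean differed from wild type. Knockout 2 minus knockout 5 was 0.20 for Ms4a2, 0.054 for Fcer1g and 0.0077 for Kit. It was -0.35 for Fcer1a, -0.43 for Cpa3, -0.54 for Tpsb2 and -0.41 for Hdc. Knockout 5 was thus the higher knockout array for the alpha chain, carboxypeptidase, tryptase and histidine decarboxylase. Of the 60 other mast cell genes, knockout 2 was above all wild-type arrays for 16 and below for 26, against 28.7% and 41.4% of all genes. Knockout 5 was above for 23 and below for 11, against 31.4% and 31.2% of all genes.

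Fcer1g also serves activating IgG receptors and C-type lectins, and 8 of 9 genes of such receptors and related adaptors were measured. The list also holds Fcgr2b, an inhibitory receptor that signals without the gamma chain, and Tyrobp, an adaptor of the same kind. Of the 8 genes, 1 rose, as did 1.55% of all genes, and 7 did not pass. In all, 5 were higher and 3 lower, and the median was 0.21 (0.086 in run 1 alone and 0.63 in run 2 alone). Clec4e, a lectin that binds mycobacterial glycolipid and signals through the gamma chain, was at 3.78 and 3.89 in knockout 2 and 5, against 3.19, 3.03 and 3.19 in wild type 3, 4 and 6. The groups did not overlap, and the difference was 0.70 (SE 0.076; adjusted p = 0.0411). That call was lost once the run entered as a block (0.70, adjusted p = 0.104), after cyclic loess (0.39, adjusted p = 0.225), with arrays centred and scaled (adjusted p = 0.0974), with array weights and without wild type 3, 4 or 6 (adjusted p = 0.173, 0.161 and 0.213). Clec4n, a lectin that binds fungal mannans, had 3.79 and 4.12 in knockout 2 and 5, against 3.37 on every wild-type array (0.58, adjusted p = 0.1005). Clec4e and Clec4n were both in the lowest quintile by wild-type level, where the median difference was 0.30. There, 4.97% of genes rose past the threshold and 37.7% had both knockout arrays above wild type. The part of this level trend in the differences of Clec4e and Clec4n was not tested. The IgG receptors Fcgr3 and Fcgr4, named after their values were seen, were highest in knockout 5, at 5.30 and 4.94. Fcgr3 was at 4.77 in knockout 2, against 4.44, 4.77 and 4.77 in wild type, and Fcgr4 was at 4.16 in knockout 2, against 4.16, 4.16 and 4.02 in wild type.

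Several members are also used by other cells, so markers of those cells are given beside them. No macrophage, neutrophil, basophil and eosinophil, melanocyte, blood progenitor, fibroblast or endothelial marker passed in limma. Of these 60, 5 had an unadjusted p under 0.05, against 3637 of all 19938 genes. Mean levels of the 12 macrophage markers were 4.93 and 4.998 in knockout 2 and 5, against 4.85 to 4.88 in wild type, and 8 of the 12 were higher. Those of the 10 neutrophil markers were 5.40 and 5.33 on the knockout arrays, against 5.17 to 5.24 in wild type, with 7 higher. Those of the 8 basophil and eosinophil markers were 4.79 and 4.78 on the knockout arrays, against 4.63 to 4.64 in wild type, with 4 higher. This list shares Mcpt8, Prss34 and Cd200r3 with the mast cell lists. Of all 19938 genes 8493 were higher. Both knockout arrays were above wild type for 2 macrophage markers, 2 neutrophil markers and 2 basophil and eosinophil markers, against 13.0% of all genes. The mean of the 8 members was 4.75 and 4.93 on the knockout arrays, against 4.68 to 4.72 in wild type. Without Ms4a2, the other 7 members averaged 4.80 and 5.03 on the knockout arrays, against 4.88 to 4.93 in wild type. Knockout 2 was then below wild type and knockout 5 above. Markers of melanocytes, another Kit-bearing cell, lay at 5.15 and 5.43 in knockout on the 2 sides of the wild-type 5.27 to 5.29, and the 6 blood progenitor and red cell markers at 5.33 and 5.56, against 5.42 in wild type. Endothelial markers were lower on average, at 5.11 and 5.10 on the knockout arrays, against 5.21 to 5.31 in wild type, with 5 of 7 lower and 2 higher. The 8 fibroblast markers lay at 5.46 and 5.93 on the knockout arrays, against 5.70 to 5.98 in wild type, with 5 lower and 3 higher. Detection above background was not called, so these means do not show whether each cell type was present. The part of these cells in the members' values was not tested.

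The genes whose 5 values lay closest to those of Ms4a2, each taken relative to its own wild-type mean, were Rnase2b, a ribonuclease of the eosinophil-associated family, Vmn1r80, a vomeronasal receptor, and Igkv5-43, an immunoglobulin kappa variable segment. Their root mean square differences from Ms4a2 over the 5 arrays were 0.012, 0.037 and 0.044. Rnase2b was at 5.51 and 5.33 in knockout 2 and 5, against 4.44 on every wild-type array. Among the other members and the 4 mast cell lists the closest was Tph1, at 0.296, which ranked 605 among all genes.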

How the data were processed

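The authors deposited log2 values for each transcript of the Affymetrix mouse gene 1.0 ST array, made with Affymetrix Expression Console and RMA per the submitters' processing notes. RMA removes background, applies quantile normalisation to the probe signals and fits each row by median polish. The deposited row values were not equally spread. Their SD over all rows was 1.13 in knockout 2 and 1.30 in knockout 5, against 1.42 to 1.43 on the wild-type arrays. Versions and the build of the annotation were not given in the sources used here. Precision is limited by the number of arrays, 2 knockout and 3 wild type. The labels name a mouse for each array and say no more, so limma's p-values describe these arrays alone. They combine each gene's variation within the groups with limma's moderation across genes. In 39.1% of all genes and in 4 of the 8 members, the 3 wild-type values were identical. For such genes the wild-type arrays supply no measured spread. Cma1, with the same value on every array, has an SE of 0.015 from the moderation alone.

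Of 35556 rows, those with exactly 1 symbol in the platform annotation were kept, 1 row a gene (highest mean over the 5 arrays), which gave 19938 genes. Each was tested with limma 3.58.1 in R 4.3.3 (two-sided, Benjamini-Hochberg over all genes, threshold 0.05). The fit was tested on simulated data. At least 2 of the 5 values were identical in 17403 genes, among them 7 of the 8 members, and all 3 wild-type values in 4 members.

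The members and gene lists were chosen with earlier results of these data known. Named genes are the members, those past the threshold and the 2 of lowest p in each list, the 3 genes most like a member past the threshold, and others said to be picked later. For lists of other cells only counts and means are given, except for Sox9, Comp, Col9a3 and Epor. Promoters came from RefSeq (GRCm38.p6). Alternatives covered the array run, scaling, rows of a gene, dim genes, variance model, array weights and each array left out. Differences within runs, quintiles by level and the members' mean without Ms4a2 were added after seeing the data.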

Additional observations from a re-analysis of the deposited data

How the results depend on the processing

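No paired analysis was possible because the knockout and wild-type mice share no number. Ms4a2 passed in 1 of 8 members with arrays centred on the median, with arrays centred and scaled, with rows averaged, with a variance trend and with robust variances. With the run as a block, cyclic loess, array weights or only genes above the median level, 0 members passed, and the last left 3 members, without Ms4a2, Fcer1a, Cpa3, Fcer1g or Kit. Over all 19938 genes 744 passed, against 158 with arrays centred and scaled. With the run as a block, cyclic loess or array weights 0 passed (3829, 3919 and 1917 at an unadjusted p under 0.05). Of the 9969 genes above the median level 446 passed. Arrays centred on the median gave 343 rises and 292 falls, in place of 309 and 435. The array weights did not converge, and they were 0.014 and 0.0050 for knockout 2 and 5, against 6.17 to 50.6 for the wild-type arrays. With 1 array left out, all genes called ranged from 0 to 9999, members from 0 to 4 and other mast cell genes from 0 to 36. The counts of 0 came without wild type 3, 4 or 6. The others came without knockout 2 (7513 genes, 4 members and 21 other mast cell genes) or knockout 5 (9999, 4 and 36), where the lone knockout array was assumed to vary like wild type, whose values are often identical. Without knockout 2, Kit passed at a difference of -0.0077. Of 107 alternative values of the members, 4 changed sign: Kit at 0.068 with arrays centred on the median, 0.051 centred and scaled and 0.035 after cyclic loess, and Hdc at 0.028 without knockout 2 (-0.38 without knockout 5). Among other named genes, signs turned for Gata2 (0.093 centred and scaled, 0.075 after cyclic loess, 0.44 without knockout 2 and -0.69 without knockout 5), Il6 (-0.027 centred and scaled, -0.20 after cyclic loess), Kitl (-0.14 after cyclic loess), Ctsc (-0.095 without knockout 2 and 1.18 without knockout 5) and the red cell gene Epor (0.00070 centred on the median, 0.15 centred and scaled, 0.11 after cyclic loess). The cause was not tested.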

Other observations

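The storage of the members' products in granules depends on further genes of the granule list, which were picked after their values were seen. Slc18a2, the transporter that loads histamine into granules, was at 4.25 in knockout 2 and at 4.91 in knockout 5, against 4.34, 4.34 and 3.94 in wild type 3, 4 and 6. Srgn, the proteoglycan core that holds the proteases, was at 4.28 in knockout 2 and at 4.79 in knockout 5, against 4.14, 4.28 and 4.28 in wild type. Both were highest in knockout 5, which was above all wild-type arrays for 31.4% of all genes. For both, unlike Fcer1a and Cpa3, knockout 2 was not above every wild-type array. Ctsc, the protease that removes the activating peptide of chymases, was highest in knockout 2, at 5.08, with 3.80 in knockout 5, against 4.11, 3.74 and 3.85 in wild type. None of the 3 passed the test (limma's adjusted p = 0.403, 0.399 and 0.448), and the differences were 0.37, 0.30 and 0.54.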
